A study of Homo sapiens with 20 samples.

Results

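The IGF binding proteins and insulin receptors examined here are 10 genes of insulin-like growth factor (IGF) signalling: the binding proteins IGFBP1 to IGFBP7, the receptors IGF1R and INSR, and the adaptor IRS2. They were taken by gene name from the 25411 genes of the deposited per-library count files, a rule that uses no measured value, and all 10 were found. Of the 10, 9 passed the filter on low counts; IGFBP1 did not and was not tested. Their reads were followed across 20 RNA-seq libraries of BEAS-2B, an immortalised human bronchial epithelial cell line, in nickel-exposed and control cells. Of the short exposure, Ni_3D (n = 2) were cells exposed for 3 days, Ni_3D+14D (n = 2) were cells labelled with the same 3 days and a further 14 days, and Control_3D (n = 4) were their controls. Of the long exposure, Ni_6W (n = 2) were cells cultured with nickel chloride for 6 weeks, and Ni_6W+2W (n = 2) were such cells after 2 more weeks in medium without nickel. Ni_clone (n = 6) were populations expanded without nickel from single colonies of cells that had received 6 weeks of nickel chloride, which the labels give as 100 mM, and each is 1 clone. Control_6W (n = 2) were the controls of the long exposure. The labels give various concentrations for the other exposed cells, do not say whether nickel was present in the further 14 days, and do not say that the replicates of a group were separate cultures, so p-values measure the spread between these libraries.

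IGF1, IGF2 and insulin act through a pair of related receptor tyrosine kinases, IGF1R and INSR. Both phosphorylate insulin receptor substrates such as IRS2, which recruit PI3-kinase and switch on AKT and mTOR, and active AKT keeps FOXO transcription factors out of the nucleus. IGFBP1 to IGFBP6 bind IGFs with high affinity, extend their life in fluids and limit their access to the receptor, while IGFBP7 binds IGFs only weakly and is known as a matrix-associated protein. Proteases such as PAPPA and HTRA1 cleave binding proteins and release the bound growth factor. In the lung, IGF signalling is known for its part in epithelial growth and repair.

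Libraries held between 8609243 and 88848786 reads in genes. All 8 genes of an epithelial list were measured, led by the keratin KRT8, while CDH1 had 0.059 and 29.0 counts per 1000000 reads (CPM) in Ni_3D and up to 11.4 CPM in Control_3D. Only 5 of the 8 reached 1 CPM in any library of Control_6W, and likewise 5 in Ni_3D+14D and in Ni_6W+2W. ESRP1 had 0 CPM in Ni_3D+14D and Ni_6W, and KRT19 had 0 CPM in Control_6W. The airway basal list (5 genes) summed to at most 10.9 CPM and the secretory and ciliated list (5 of its 6 genes in the files) to at most 1.19 CPM in any group. Of the basal genes, Ni_6W+2W library 1 held 132 KRT5, 96 KRT14 and 7 TP63 reads, and library 2 held 0 of each. Of 8 fibroblast markers, COL1A1, PDGFRB and THY1 were above 1 CPM in all 20 libraries, and COL1A2 ran from 0.184 to 98.7 CPM. LUM stayed under 1 CPM except in 1 Control_6W library (1.41 CPM). COL3A1, PDGFRA and DCN stayed under 1 CPM in every library, with at most 0.817, 0.184 and 0.0444 CPM. The list of oestrogen-receptor-positive breast cells (5 genes) summed to 2.73 and 155 CPM in Ni_3D and to between 0.353 and 77.7 CPM in Control_3D. ESR1 itself had 10.7 CPM in Ni_3D library 1 and 3.51 CPM in Control_3D library 1, and 0 reads in the other 18 libraries. The control libraries also differed among themselves: ZEB1, the factor the series is about, had 11.9 and 12.4 CPM in Control_3D libraries 1 and 2, against 1.04 and 1.76 CPM in libraries 3 and 4. Both Control_6W libraries had low ZEB1 as well, at 0.612 and 0.984 CPM. Fits without the ESR1 libraries, and without Control_3D 1 and 2 or 3 and 4, stand beside the Ni_3D results that passed the test or lay just outside it.

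The genes lie on 8 human chromosomes, and 2 pairs of them lie close together. In the hg19 coordinates of the deposited files, IGFBP1 (chr7:45927959-45933267, plus strand) is followed after 18576 bases by IGFBP3 (chr7:45951844-45960871, minus strand). IGFBP2 (chr2:217498127-217529158, plus strand) is followed after 7669 bases by IGFBP5 (chr2:217536828-217560272, minus strand). IGFBP4 (chr17:38599676-38613982), IGFBP6 (chr12:53491436-53496128) and IGF1R (chr15:99191768-99507759) are on the plus strand, and IGFBP7 (chr4:57898404-57976551), INSR (chr19:7112266-7294011) and IRS2 (chr13:110406184-110438914) on the minus strand. RefSeq promoter windows of build GRCh38.p14, from 250 bases before to 50 bases after the start of the transcript, were matched by symbol for 8 of the 10 genes, all but IGFBP1 and IGFBP7. The windows of the 3 genes that passed the test in a comparison with controls and have an entry are shown because the results below turn on them, 5′ to 3′ on the gene's own strand. Capitals mark a hypoxia response core, searched as ACGTG on both strands.
IGFBP4 promoter, chr17:40443200-40443499, plus strand: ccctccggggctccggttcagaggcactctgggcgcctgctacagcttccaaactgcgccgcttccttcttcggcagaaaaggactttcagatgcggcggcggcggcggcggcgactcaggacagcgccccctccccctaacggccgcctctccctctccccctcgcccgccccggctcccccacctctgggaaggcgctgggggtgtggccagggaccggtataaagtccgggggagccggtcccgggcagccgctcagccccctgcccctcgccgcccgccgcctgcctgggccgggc
IRS2 promoter, chr13:109786534-109786833, minus strand: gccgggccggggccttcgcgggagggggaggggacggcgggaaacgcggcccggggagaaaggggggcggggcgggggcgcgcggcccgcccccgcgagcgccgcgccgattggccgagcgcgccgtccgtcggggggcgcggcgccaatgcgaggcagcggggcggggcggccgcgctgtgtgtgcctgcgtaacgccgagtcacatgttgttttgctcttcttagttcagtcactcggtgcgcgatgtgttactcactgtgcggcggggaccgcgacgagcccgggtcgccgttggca
IGF1R promoter, chr15:98648289-98648588, plus strand: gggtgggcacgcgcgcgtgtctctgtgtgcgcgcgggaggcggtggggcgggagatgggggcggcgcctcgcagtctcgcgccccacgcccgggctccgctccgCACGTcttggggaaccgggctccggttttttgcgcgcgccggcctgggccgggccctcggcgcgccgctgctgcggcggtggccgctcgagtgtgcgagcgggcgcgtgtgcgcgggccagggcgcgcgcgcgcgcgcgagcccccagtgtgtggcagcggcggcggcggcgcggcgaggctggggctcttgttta
IGF1R held 1 such core, written here as its reverse complement and 146 bases before the start, while the windows of IGFBP4 and IRS2 held none. The core was in 21.4% of the 35116 windows of the table, and among the other members 1 of 3 IGFBP2 windows had it. A FOXO motif, searched as GTAAACA on both strands, was in the IGFBP6 window alone among the members, 186 bases before the start, and in 3.42% of all windows. These are matches of letters in a short window and say nothing on whether a factor binds there.

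Per length, the binding proteins differed widely in level, and IGFBP3, IGFBP7, IGFBP4 and IGFBP6 made up nearly all of the binding-protein transcripts. On the authors' RPKM scale (reads per kilobase of transcript, scaled for library size), median levels over the 20 libraries were 126 for IGFBP3, 115 for IGFBP7, 48.4 for IGFBP4, 44.8 for IGFBP6, 13.8 for IGFBP2 and 0.207 for IGFBP5, with 8.05 for IGF1R, 4.51 for INSR and 5.26 for IRS2. Of the summed IGFBP RPKM, IGFBP3 took 32.7% and 20.5% in the Ni_3D libraries and between 33.8% and 73.1% in Control_3D. In the long exposure it took 8.01% and 26.2% in Ni_6W, 67.5% and 30.2% in Ni_6W+2W, between 11.4% and 46.4% in the clones, and 54.5% and 41.1% in Control_6W. IGFBP7 was the leading transcript in 7 of 14 nickel libraries, IGFBP3 in 6 of 14 and IGFBP6 in 1 of 14 (clone 1), whereas IGFBP3 led in 6 of 6 control libraries. The share of IGFBP7 reached 61.7% in Ni_6W library 1, its highest value, and was 11.3% in Control_6W library 1, its lowest. These shares are a description with no test, and in cultures sequenced whole, fewer cells that transcribe a gene and less RNA per cell cannot be told apart.

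**Figure D1:**
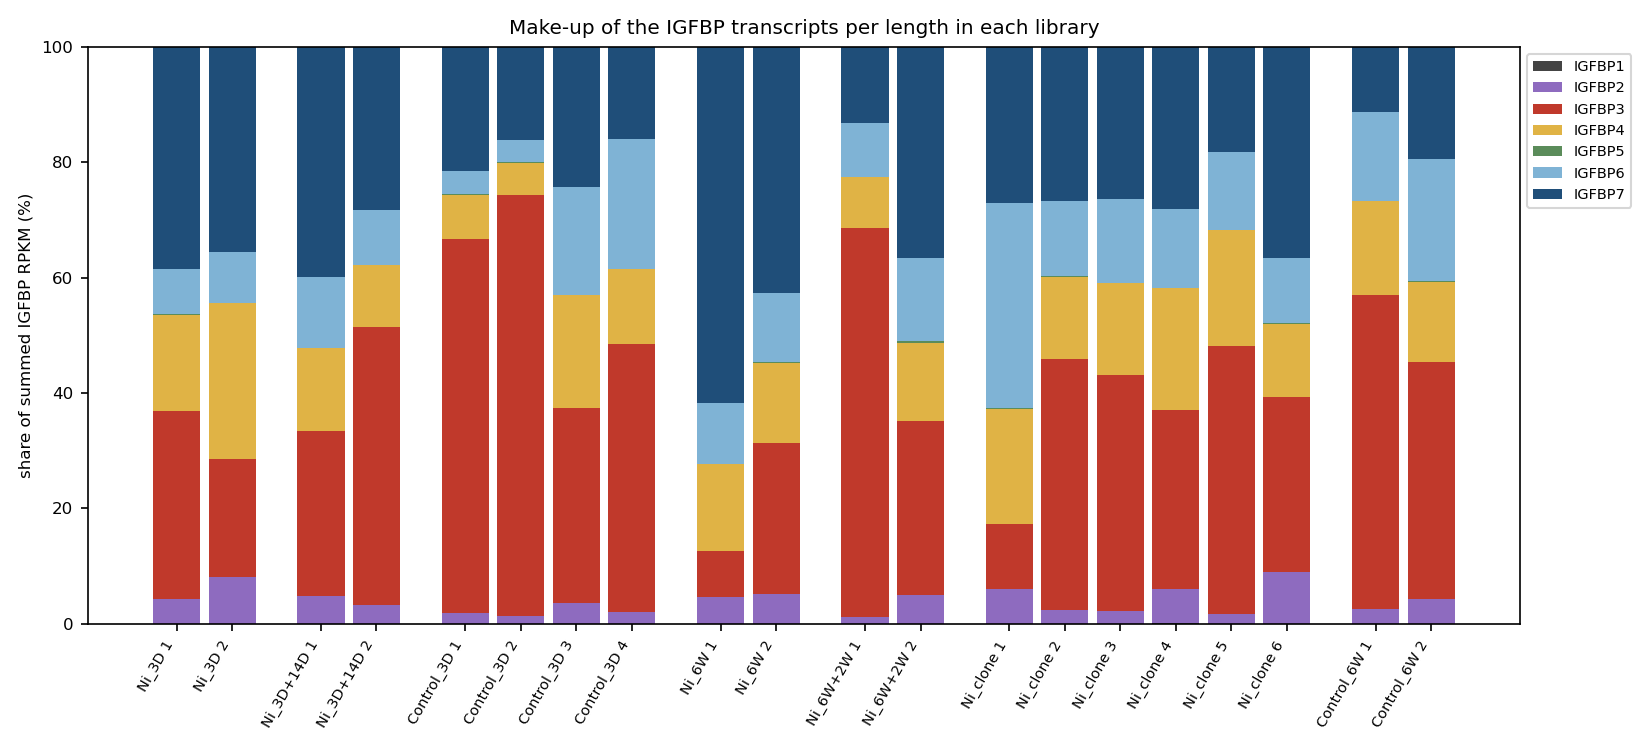
Stacked bars show, for each of the 20 libraries (x axis, nickel groups left of their controls), the share in percent of the summed RPKM of the 7 binding-protein genes (y axis). The IGFBP3 segment is the tallest in all 6 control libraries, and the IGFBP7 segment is the tallest in both Ni_3D and both Ni_6W libraries.

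Each nickel group was compared with its control by the quasi-likelihood test of edgeR on the counts, and p-values were adjusted over all genes tested after Benjamini and Hochberg, with a threshold of 0.05. After 3 days, 2 of the 9 tested genes rose, IGFBP4 and IRS2, and 0 fell, against 4.33% of 14927 genes called in either direction and 2.83% called upward. The median log2 difference of the 9 was 0.64, against 0.03 over all genes tested. The fibroblast markers moved in the same comparison: their summed level was 908 and 1876 CPM in Ni_3D, against 2398 to 5122 CPM in Control_3D. All 5 that were tested had a negative log2 difference (median -1.61), 4 had an unadjusted p under 0.05, and PDGFRB was called (-1.15, SE 0.28, adjusted p = 0.041 by edgeR). All 5 were also negative without the 2 libraries with ESR1 reads (median -1.97, 0 called by edgeR), without Control_3D 1 and 2 (-1.40, 2 called) and without Control_3D 3 and 4 (-0.88, 1 called). In the epithelial list 7 of the 8 tested genes had a positive log2 difference (median 1.39), with 0 called by edgeR. Its summed level was 699 and 705 CPM in Ni_3D, against 737 to 916 CPM in Control_3D. The 3 airway basal genes tested were positive as well (median 3.11, 0 called). The part of these shifts in the results of the 9 genes was not tested. In the clones, 2 of 9 rose, IGF1R and IGFBP7, and 0 fell, against 5.26% of 14172 genes called and 2.89% called upward, with a median log2 difference of 0.79 against 0.01 over all genes. With so few genes, these counts are a description and no test of the list.

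In the remaining comparisons edgeR called 0 of the 9. The shares over all genes given below are edgeR's, at an adjusted p under 0.05. In each of these comparisons DESeq2 called more genes over all than edgeR, and its counts are given at the end. Throughout, counts at an unadjusted p under 0.05 have no share over all genes beside them and are a description. In Ni_6W against Control_6W, where 2.47% of all genes were called by edgeR, 4 of the 9 had an unadjusted p under 0.05. DESeq2 called 3 of them (IGFBP7, IGF1R and IRS2), and 2051 genes over all. In Ni_6W+2W against Control_6W, with 0% called over all genes, 2 had an unadjusted p under 0.05 and DESeq2 called 0. In Ni_3D+14D against Control_3D, with 0% called, 1 had such a p and DESeq2 called 0. Ni_3D+14D against Ni_3D (0.255% called) gave 2 such genes, Ni_6W+2W against Ni_6W (0% called) 1, Control_6W against Control_3D (0% called) 2, the long response less the short one (0% called) 0, and the clones against Ni_6W+2W (0.028% called) 0. DESeq2 called 0 of the 9 in these last 5 comparisons. Comparisons with one control group share its libraries: Ni_3D and Ni_3D+14D share the 4 Control_3D libraries, and Ni_6W, Ni_6W+2W and the clones share the 2 Control_6W libraries.

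**Figure D2:**
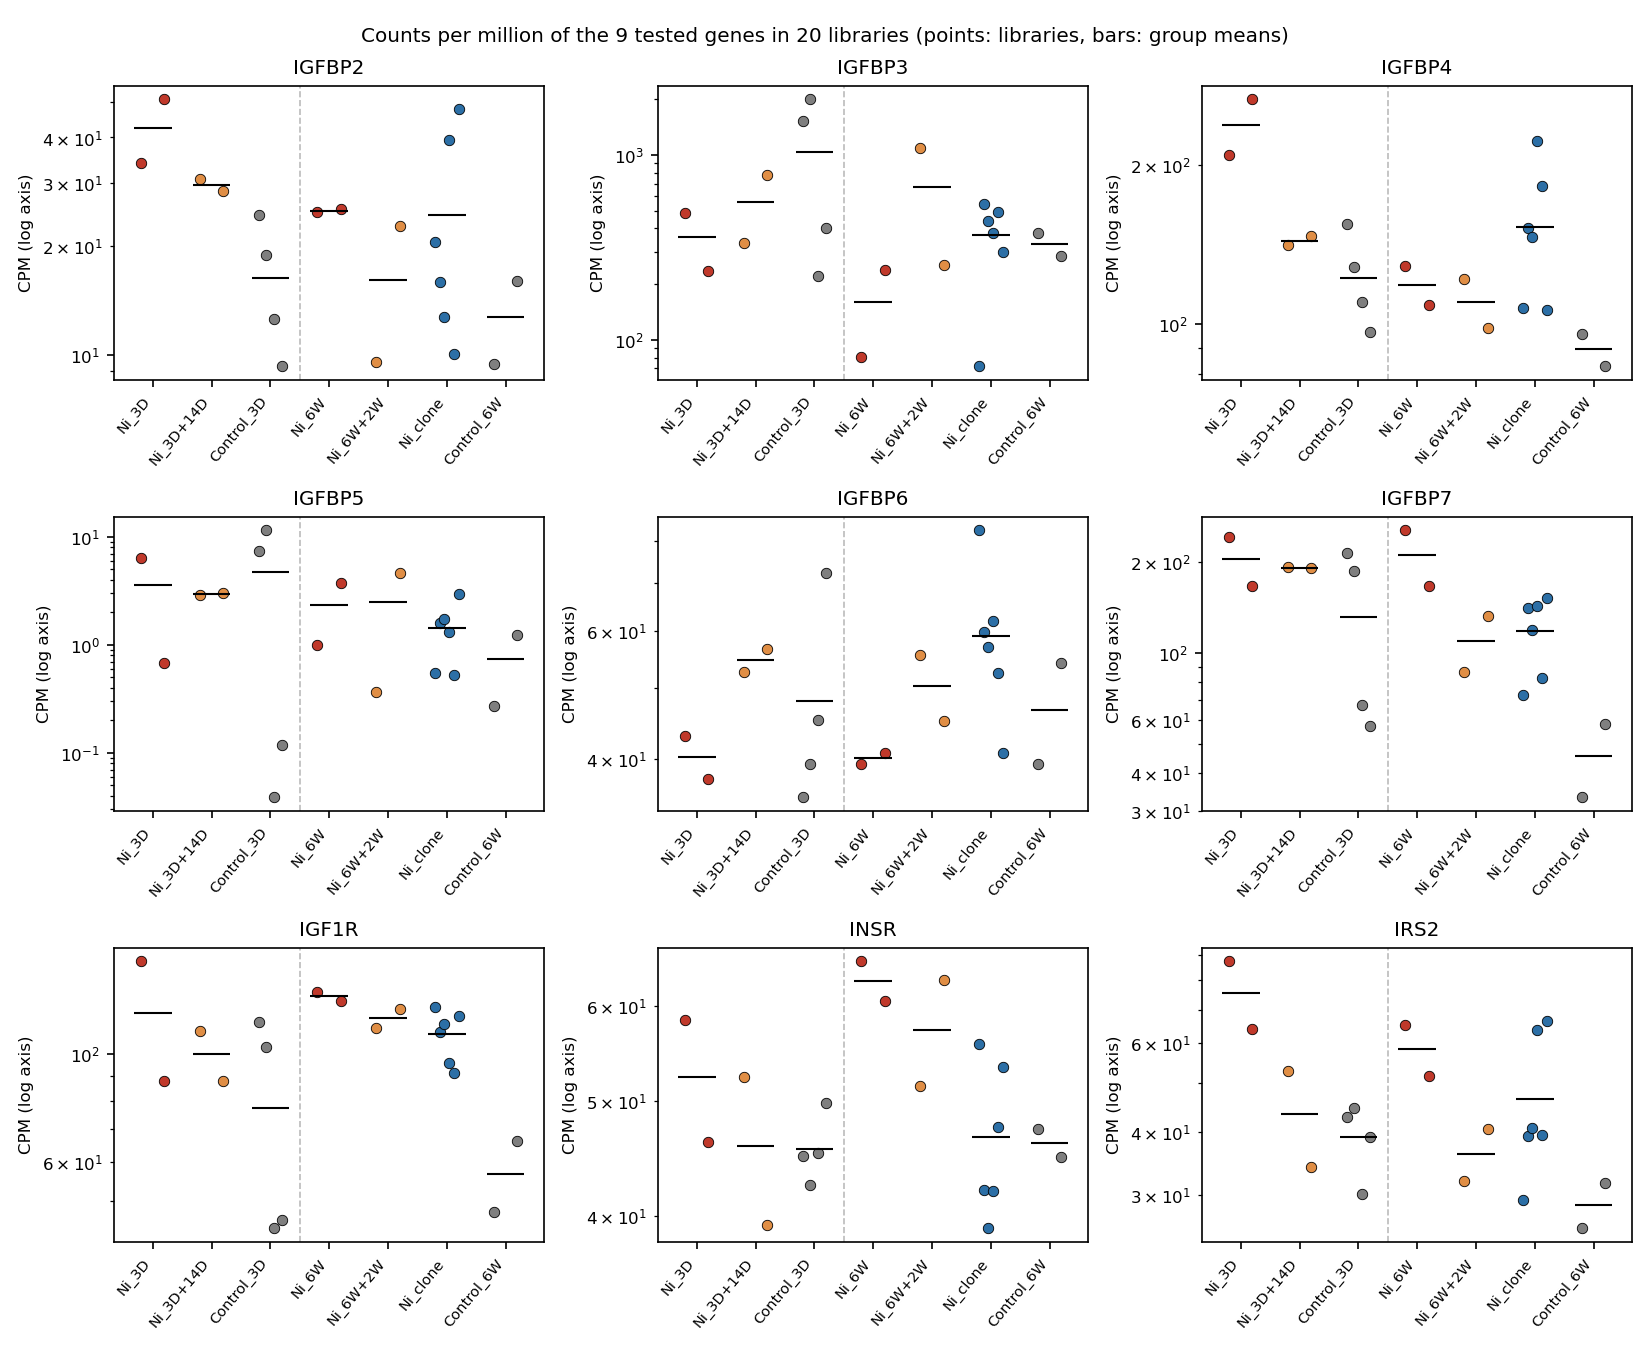
CPM (counts scaled for library size, y axis, log scale) of the 9 tested genes are plotted by group (x axis), with a point for each library, a bar at the group mean and a dashed line between the short and the long exposure. The IGFBP4, IRS2 and IGFBP2 points of Ni_3D lie above every Control_3D point, and the IGF1R and IGFBP7 points of the clones lie above both Control_6W points.

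**Figure D3:**
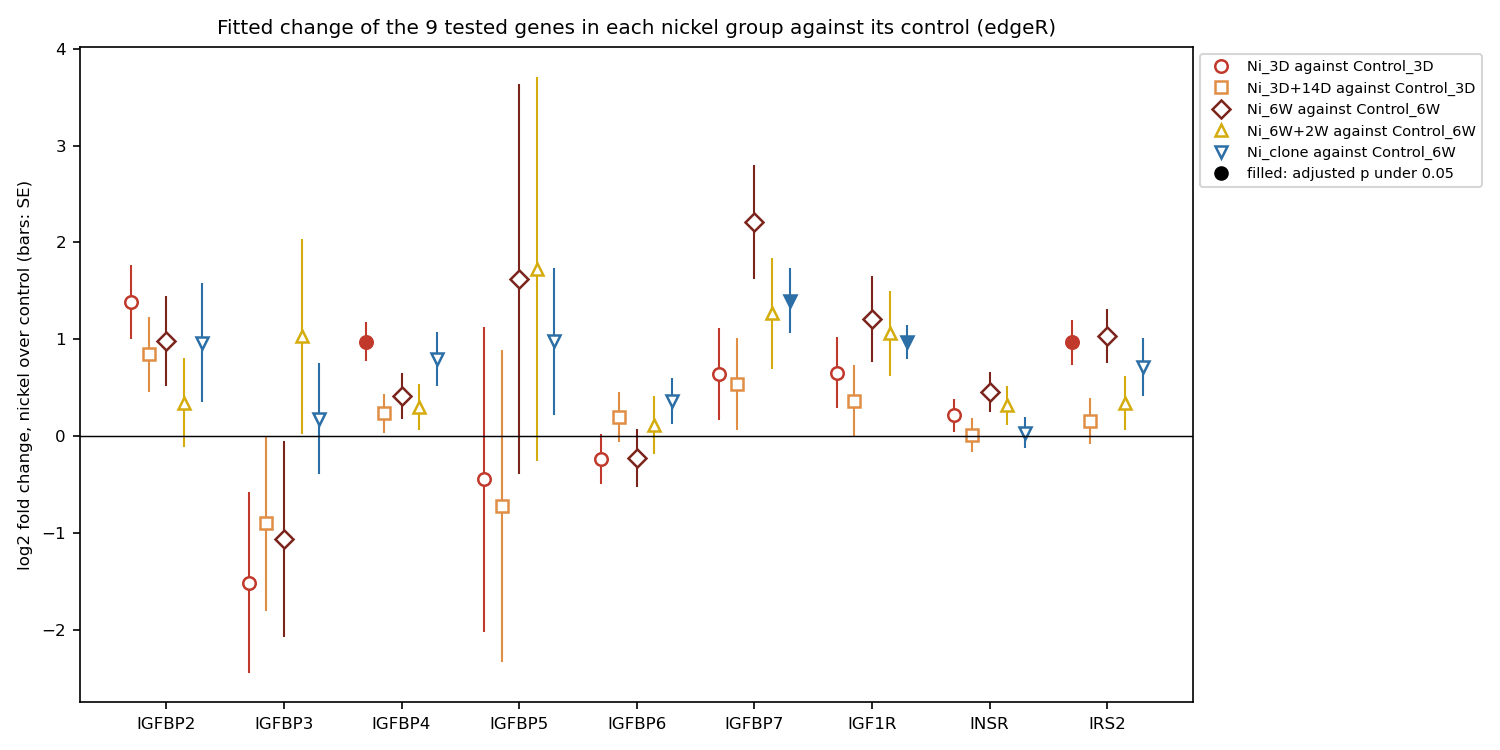
Fitted log2 fold changes of nickel over control (y axis, bars are standard errors) are shown for the 9 tested genes (x axis) in 5 comparisons, with filled symbols for an adjusted p under 0.05. Filled symbols are IGFBP4 and IRS2 in Ni_3D and IGFBP7 and IGF1R in the clones, and the error bars of IGFBP3 and IGFBP5 are the widest.

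IGFBP4, a carrier that mostly inhibits IGF action and is cleaved by PAPPA, rose in the 3-day exposure. It had 209 and 267 CPM in Ni_3D, 141 and 146 CPM in Ni_3D+14D and 155, 128, 109.7 and 96.3 CPM in Control_3D. Both Ni_3D libraries lay above all 4 controls, while the Ni_3D+14D libraries lay within the control range. The log2 fold change was 0.97 (SE 0.20, adjusted p = 0.024) by edgeR in Ni_3D, a fold of 1.97, and 0.23 (SE 0.20, adjusted p = 0.979) in Ni_3D+14D. Ni_3D+14D against Ni_3D gave -0.74 (SE 0.24, adjusted p = 0.226) by edgeR, with both Ni_3D+14D libraries below both Ni_3D libraries. The call was lost when any 1 library of these groups other than Control_3D 1 was left out: without Control_3D 2, 3 or 4 edgeR's adjusted p was 0.0569, 0.0715 or 0.0518, and without Ni_3D 1 or 2 it was 0.0521 or 0.166. It was called without Control_3D 1 and 2, the libraries with high ZEB1 (1.21, adjusted p = 0.00863 by edgeR), and without the 2 libraries with ESR1 reads (1.26, adjusted p = 0.0393 by edgeR), and not without Control_3D 3 and 4 (0.75, adjusted p = 0.129 by edgeR).

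After 6 weeks IGFBP4 had 129 and 108 CPM in Ni_6W, 121 and 98.1 CPM in Ni_6W+2W and 95.7 and 82.8 CPM in Control_6W, and the clones had a lowest of 106, a median of 149 and a highest of 222 CPM. Every one of these nickel libraries lay above both controls, yet no comparison passed edgeR's test. The log2 differences were 0.41 (SE 0.24, adjusted p = 0.286) in Ni_6W, 0.30 (SE 0.24, adjusted p = 0.618) in Ni_6W+2W and 0.79 (SE 0.28, adjusted p = 0.117) in the clones by edgeR. DESeq2 called it in the clones (adjusted p = 0.0363). The test of the difference between the long and the short response gave -0.56 (SE 0.31, adjusted p = 0.525) by edgeR, so the responses were not shown to differ.

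IGFBP7, the weak IGF binder of the matrix, was higher in the clones than in Control_6W. It had 254 and 166 CPM in Ni_6W, 86.5 and 132 CPM in Ni_6W+2W and 33.2 and 57.9 CPM in Control_6W, and the clones had a lowest of 72.6, a median of 130.0 and a highest of 152 CPM. All 10 nickel libraries of the long exposure lay above both controls. Control_3D libraries 1 and 2 had 215 and 187 CPM, above every clone. By edgeR the log2 fold change of the clones over Control_6W was 1.40 (SE 0.33, adjusted p = 0.0442), a fold of 2.64. Ni_6W had a larger log2 difference, 2.21 (SE 0.59, adjusted p = 0.0619) by edgeR, just outside the threshold, and Ni_6W+2W had 1.27 (SE 0.57, adjusted p = 0.375). The call in the clones was lost in edgeR without Control_6W 1 (adjusted p = 0.14) or 2 (0.169), without clone 2 (0.08), 3 (0.0799), 4 (0.075) or 6 (0.0657), and without the filter on low counts (0.0535). In Ni_6W 4 of 9 alternatives called it, with log2 differences over the 9 from 1.86 to 2.65. Among the 4 were DESeq2 (adjusted p = 0.00186) and edgeR on those 2 groups alone (adjusted p = 0.0418).

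In the short exposure the IGFBP7 level differed among the control libraries. It had 242 and 166 CPM in Ni_3D, 192 and 191 CPM in Ni_3D+14D and 215, 187, 67.0 and 57.1 CPM in Control_3D. Control libraries 1 and 2 lay among the nickel libraries and controls 3 and 4 near the Control_6W libraries. The log2 difference of Ni_3D was 0.64 (SE 0.48, adjusted p = 0.432) by edgeR with all 4 controls. It was 1.72 without controls 1 and 2 (adjusted p = 0.0143 by edgeR) and 0.02 without controls 3 and 4 (adjusted p = 0.983 by edgeR). Between the control groups, Control_6W against Control_3D, the difference was -1.55 (SE 0.53, adjusted p = 0.577) by edgeR, and it was -2.15 and called without Control_3D 3 and 4 (adjusted p = 0.00877). The long response less the short response was 1.57 (SE 0.76, adjusted p = 0.477) by edgeR.

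IGFBP3, the main IGF carrier of serum, was the leading binding protein per length in 12 of 20 libraries and varied widely within groups. It had 485 and 237 CPM in Ni_3D, 332 and 782 CPM in Ni_3D+14D and 1525, 1998, 222 and 405 CPM in Control_3D. The 2 controls with high ZEB1 held the highest IGFBP3 of the series, and the other 2 lay among or just below the nickel libraries. With all 4 controls the log2 difference of Ni_3D was -1.51 (SE 0.93, adjusted p = 0.344) by edgeR, with 0.21 without controls 1 and 2 and -2.29 without controls 3 and 4, so its sign depended on which controls were used. In the long exposure it had 80.3 and 239 CPM in Ni_6W, 1087 and 255 CPM in Ni_6W+2W and 377 and 285 CPM in Control_6W, and the clones had a lowest of 71.7, a median of 409 and a highest of 543 CPM. Both Ni_6W libraries lay below both controls, at -1.06 (SE 1.01, adjusted p = 0.534) on the log2 scale by edgeR. Of Ni_6W+2W, library 1 lay above both controls and library 2 below them. Library 1 is the one with KRT5 and KRT14 reads, and the part of those reads in its level was not tested.

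IGFBP2, a carrier that prefers IGF2, had 34.0 and 51.0 CPM in Ni_3D, 30.7 and 28.4 CPM in Ni_3D+14D and 24.4, 19.0, 12.6 and 9.29 CPM in Control_3D. Every nickel library of the short exposure lay above all 4 controls. The log2 difference of Ni_3D was 1.38 (SE 0.38, adjusted p = 0.0568) by edgeR, just outside the threshold, and DESeq2 called it (adjusted p = 0.011). Of 14 alternatives 3 called it, with log2 differences from 0.92 to 1.95 and adjusted p up to 0.287. Those by edgeR were without Control_3D 1 (adjusted p = 0.0378) and without controls 1 and 2 (1.95, adjusted p = 0.0192). It was 0.97 without controls 3 and 4 (adjusted p = 0.234 by edgeR) and 1.89 without the 2 libraries with ESR1 reads (adjusted p = 0.0868 by edgeR). In Ni_3D+14D the log2 difference was 0.84 (SE 0.38, adjusted p = 0.979) by edgeR. In the long exposure it had 24.8 and 25.4 CPM in Ni_6W, 9.55 and 22.8 CPM in Ni_6W+2W and 9.46 and 16.0 CPM in Control_6W, and the clones had a lowest of 10.04, a median of 18.2 and a highest of 48.0 CPM. Its clones spanned a fold of 4.78 (highest over lowest), and clones 4 and 6 were the high ones.

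IGFBP6, another carrier with a preference for IGF2, and IGFBP5, a matrix-bound carrier, did not pass the test in any comparison. IGFBP6 had 42.9 and 37.5 CPM in Ni_3D, 52.7 and 56.8 CPM in Ni_3D+14D and 35.3, 39.2, 45.2 and 72.2 CPM in Control_3D. It had 39.4 and 40.6 CPM in Ni_6W, 55.6 and 45.05 CPM in Ni_6W+2W and 39.3 and 54.2 CPM in Control_6W, and the clones had a lowest of 40.7, a median of 58.5 and a highest of 82.8 CPM. Its groups overlapped their controls in all 5 comparisons. IGFBP5 had 6.44 and 0.684 CPM in Ni_3D, 2.89 and 3.03 CPM in Ni_3D+14D and 7.44, 11.5, 0.0386 and 0.118 CPM in Control_3D, where libraries 3 and 4 held 1 read each. The high and low control libraries were those of IGFBP3 and IGFBP7, with libraries 1 and 2 high. In the long exposure IGFBP5 had 1.01 and 3.71 CPM in Ni_6W, 0.365 and 4.61 CPM in Ni_6W+2W and 0.273 and 1.22 CPM in Control_6W, and the clones had a lowest of 0.528, a median of 1.45 and a highest of 2.96 CPM. The largest log2 differences from controls were 0.36 (SE 0.24, adjusted p = 0.379) for IGFBP6, in the clones, and 1.73 (SE 1.98, adjusted p = 0.761) for IGFBP5, in Ni_6W+2W, both by edgeR.

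IGFBP1, the insulin-regulated carrier of liver, was at the edge of detection. It had 16 reads in 6 of 20 libraries, which are 6 reads in clone 4, 4 in Control_3D 1, 3 in Ni_3D 1 and 1 in each of 3 more libraries. Ni_6W held 0 reads of 34763024, which allows up to 0.0863 CPM for counting error alone. No fold is given for it.

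IGF1R, the type 1 IGF receptor, was higher in the clones than in Control_6W. It had 134 and 128 CPM in Ni_6W, 113 and 123 CPM in Ni_6W+2W and 47.4 and 66.3 CPM in Control_6W, and the clones had a lowest of 91.1, a median of 113 and a highest of 124 CPM. All 10 nickel libraries of the long exposure lay above both controls. Control_3D libraries 1 and 2 had 116 and 103 CPM, within the range of the clones. The 6 clones lay close together, within a fold of 1.37 (highest over lowest), and 34.3% of the genes had a smaller spread between clones. The log2 fold change of the clones was 0.97 (SE 0.17, adjusted p = 0.0216) by edgeR, a fold of 1.96. Leaving out any 1 clone kept the call, and it was lost in edgeR without Control_6W 1 (adjusted p = 0.051) or 2 (0.1). Ni_6W had 1.21 (SE 0.44, adjusted p = 0.116) and Ni_6W+2W 1.06 (SE 0.44, adjusted p = 0.337) on the log2 scale by edgeR, and DESeq2 called it in Ni_6W (adjusted p = 0.0484). Clones against Ni_6W+2W gave -0.12 (SE 0.14, adjusted p = 0.927) by edgeR.

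In the short exposure IGF1R had 154 and 87.8 CPM in Ni_3D, 111 and 88.0 CPM in Ni_3D+14D and 116, 103, 43.9 and 45.7 CPM in Control_3D. As with IGFBP7, control libraries 1 and 2 lay within the nickel range and libraries 3 and 4 well below every nickel library. By edgeR, Ni_3D differed by 0.66 (SE 0.37, adjusted p = 0.295) with all controls. The log2 difference was 1.44 without controls 1 and 2 (adjusted p = 0.0143 by edgeR) and 0.14 without controls 3 and 4 (adjusted p = 0.824 by edgeR).

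INSR, the insulin receptor, varied least of the 9 genes. It had 58.4 and 46.1 CPM in Ni_3D, 52.4 and 39.3 CPM in Ni_3D+14D and 44.9, 42.5, 45.1 and 49.7 CPM in Control_3D. In the long exposure it had 65.4 and 60.6 CPM in Ni_6W, 51.5 and 63.2 CPM in Ni_6W+2W and 47.3 and 44.9 CPM in Control_6W, and the clones had a lowest of 39.0, a median of 44.8 and a highest of 55.8 CPM. Ni_6W and Ni_6W+2W lay above both controls, while the clones overlapped them. Its log2 difference in Ni_6W was 0.45 (SE 0.20, adjusted p = 0.177) and in the clones 0.04 (SE 0.16, adjusted p = 0.914) by edgeR. Only 13.6% of 14899 genes had a smaller SD of log2 CPM over the 20 libraries.

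Per length, IGF1R over INSR was 1.95 and 1.41 in Ni_3D, 1.57 and 1.65 in Ni_3D+14D, and 1.91, 1.80, 0.718 and 0.679 in Control_3D. The ratio was 1.51 and 1.56 in Ni_6W, 1.62 and 1.44 in Ni_6W+2W, between 1.41 and 2.18 in the clones, and 0.739 and 1.09 in Control_6W. IGF1R was thus above INSR in RPKM in all 14 nickel libraries and in 3 of 6 controls, and below it in Control_3D 3 and 4 and Control_6W 1. No test was made of this ratio.

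**Figure D4:**
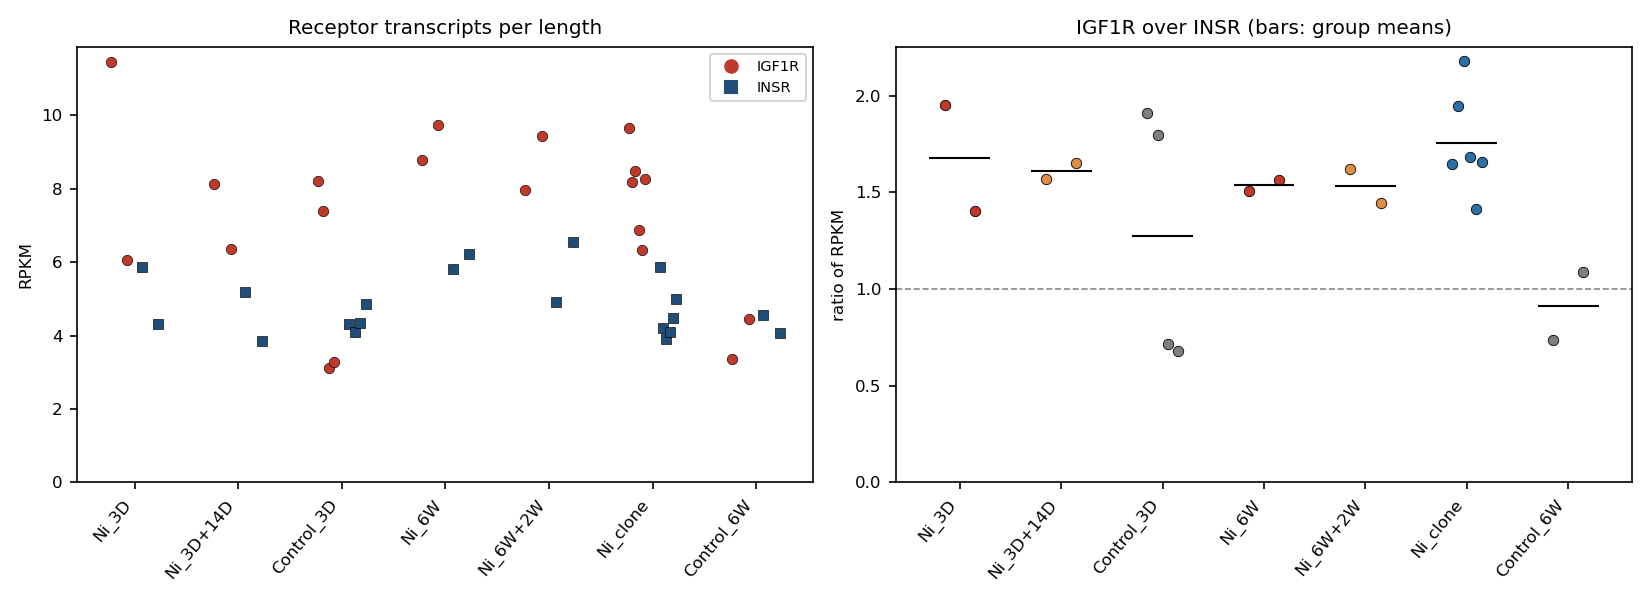
The left panel plots RPKM (y axis, from 0) of IGF1R (circles) and INSR (squares) in each library by group (x axis), and the right panel the ratio of both with a bar at the group mean and a dashed line at equality. The nickel libraries span a ratio of 1.41 to 2.18, and the controls 0.679 to 1.91.

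IRS2, the adaptor that couples both receptors to PI3-kinase, rose in the 3-day exposure. It had 87.3 and 64.1 CPM in Ni_3D, 52.8 and 34.0 CPM in Ni_3D+14D and 42.7, 44.6, 30.0 and 39.0 CPM in Control_3D. Both Ni_3D libraries lay above all 4 controls, and the Ni_3D+14D libraries lay on either side of the highest control. The log2 fold change was 0.97 (SE 0.23, adjusted p = 0.0382) by edgeR in Ni_3D, a fold of 1.95, and 0.15 (SE 0.24, adjusted p = 0.985) in Ni_3D+14D, with -0.81 (SE 0.28, adjusted p = 0.255) for Ni_3D+14D against Ni_3D. In edgeR the call was lost without Control_3D 2 (adjusted p = 0.0681), 3 (0.102) or 4 (0.0732) and without Ni_3D 1 (0.228) or 2 (0.107). Without the 2 libraries with ESR1 reads it was 0.76 (adjusted p = 0.229 by edgeR), and without controls 3 and 4 it was 0.79 (adjusted p = 0.174). It stayed called without controls 1 and 2 (1.14, adjusted p = 0.0348 by edgeR). The highest IRS2 level of the series was in Ni_3D 1, the library with the most breast-marker reads, and the part of those reads in the result was not tested beyond these fits.

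After 6 weeks IRS2 had 65.2 and 51.6 CPM in Ni_6W, 31.9 and 40.5 CPM in Ni_6W+2W and 25.7 and 31.6 CPM in Control_6W, and the clones had a lowest of 29.3, a median of 40.1 and a highest of 66.5 CPM. The nickel libraries of Ni_6W and Ni_6W+2W lay above both controls, and clone 1 lay between them. The log2 difference of Ni_6W was 1.03 (SE 0.28, adjusted p = 0.062) by edgeR, close to the value at 3 days and just outside the threshold. Of 9 alternatives 2 called it, with log2 differences over the 9 from 0.84 to 1.17. These were DESeq2 (adjusted p = 0.0109) and edgeR without Ni_6W 2, which leaves 1 Ni_6W library. Ni_6W+2W differed from its controls by 0.34 (SE 0.28, adjusted p = 0.631) and from Ni_6W by -0.69 (SE 0.28, adjusted p = 0.733) by edgeR, and the clones by 0.72 (SE 0.30, adjusted p = 0.174). The long response less the short one was 0.06 (SE 0.36, adjusted p = 0.97) by edgeR.

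The order of group means shows how much of this lies within the spread. For IGFBP4 the order from high to low was Ni_3D (238 ± 40.8 CPM, mean ± SD), the clones, Ni_3D+14D, Control_3D, Ni_6W, Ni_6W+2W and Control_6W (89.3 ± 9.08 CPM), and 5 of the 6 neighbouring steps overlapped. For IRS2 it was Ni_3D (75.7 ± 16.4 CPM), Ni_6W, the clones, Ni_3D+14D, Control_3D, Ni_6W+2W and Control_6W (28.7 ± 4.20 CPM), with overlap in 5 of 6 steps as well. IGFBP7 had its highest mean in Ni_6W (210.4 ± 62.2 CPM) and its lowest in Control_6W (45.6 ± 17.5 CPM), and so had IGF1R (131 ± 3.65 CPM in Ni_6W and 56.8 ± 13.4 CPM in Control_6W). Control_6W had the lowest mean for 6 of the 9 tested genes, namely IGFBP2, IGFBP4, IGFBP5, IGFBP7, IGF1R and IRS2. The share of all genes with their lowest mean in Control_6W was not counted, so this count is a description.

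Among clones grown from single colonies, each of the 6 tested carriers had a larger spread than either receptor, as a description with no test. The SD of log2 CPM between the 6 clones was 1.08 for IGFBP3, larger than in 98.8% of the genes, and 0.88 for IGFBP2, larger than in 97.4%. It was 0.18 for IGF1R and 0.20 for INSR, larger than in 34.3% and 42.8%. IGFBP3 was lowest in clone 1 (71.7 CPM), which also had the highest IGFBP6 (82.8 CPM). Over the 20 libraries the members most alike were IGFBP7 with IGF1R (Pearson r = 0.754 of log2 CPM), IGFBP7 with IRS2 (0.754) and IGFBP2 with IRS2 (0.751). Of all other tested genes, IGF1R was most like SLC39A8 (r = 0.945), PDPN (0.940) and ZNF585A (0.917). IGFBP4 was most like IL17D (0.865), SNAPC4 (0.857) and NAV2 (0.846), and IRS2 most like IDUA (0.875), AGRN (0.866) and DNAJC25 (0.841). These correlations describe 20 libraries that share groups and controls and carry no test.

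The rest of the pathway was followed with a list of 68 genes, of which 63 passed the filter (59 with the clones). The ligands were nearly absent: IGF1 and INS had 0 reads of 531158187 over the 20 libraries, which allows up to 0.00565 CPM for counting error alone, and IGF2 reached at most 4.52 CPM, in a clone. After 3 days 3 of 63 rose and 3 fell by edgeR, against the 4.33% of all genes. DDIT4, an inhibitor of mTOR, had 629 to 651 CPM in Ni_3D and 16.2 to 72.9 CPM in Control_3D, a log2 fold change of 4.25 (SE 0.74, adjusted p = 0.0164) by edgeR. STC2, an inhibitor of PAPPA, had 686 to 818 CPM in Ni_3D and 140.3 to 219 CPM in Control_3D, a log2 fold change of 2.08 (SE 0.41, adjusted p = 0.0222) by edgeR. The adaptor SH2B2 was the third that rose, by 1.21 (SE 0.30, adjusted p = 0.041) on the log2 scale in edgeR. Among those that fell on the log2 scale were IGF2BP3, an IGF2 mRNA-binding protein (-0.93), and CITED2, a FOXO target (-1.06). These 5 genes kept their direction in all 14 alternatives, but their calls did not hold: edgeR called 0 of the 63 without the 2 libraries with ESR1 reads, without Control_3D 2, without Ni_3D 1 or without Ni_3D 2, and 1 without Control_3D 3. DDIT4 had a log2 fold change of 3.72 without controls 1 and 2 (adjusted p = 0.0259 by edgeR), 5.002 without controls 3 and 4 (0.0304) and 4.06 without the 2 libraries with ESR1 reads (0.0973). Without controls 1 and 2 the other 4 had adjusted p from 0.0522 to 0.0826 in edgeR, without controls 3 and 4 from 0.064 to 0.141, and without the 2 libraries with ESR1 reads from 0.0977 to 0.185. Ni_3D+14D had 0 of 63 called against Control_3D (4 at an unadjusted p under 0.05), and IGF2BP3 alone rose against Ni_3D (1.27), a call that edgeR lost when any 1 library of these 2 groups was left out.

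In Ni_6W, 0 of the 63 rose and 2 fell by edgeR, the AKT phosphatase PHLPP2 (-1.10) and CITED2 (-1.15), both just inside the threshold. These calls depended on single libraries, and a fit without any 1 of them leaves 1 library in a group. With 1 library left out, the log2 difference of PHLPP2 ran from -1.38 to -0.77 and that of CITED2 from -1.42 to -0.83. Over all genes tested, edgeR called 1.25% upward and 1.21% downward in Ni_6W. The clones had 3 of 59 higher and 0 lower, against 2.89% of all genes called upward and 2.38% downward. HTRA1 was higher by 1.83 on the log2 scale. It had 22.4 to 81.0 CPM in the clones, 12.2 to 16.7 CPM in Control_6W and 17.4 to 66.7 CPM in Control_3D. The others were SOCS1, a suppressor of cytokine and insulin signalling (1.63), and CCNG2, a FOXO target (1.23). These counts are a description and no test of the list. In the clones edgeR called 0 without Control_6W 2, 6 without Control_6W 1 and 1 without clone 2, 3 or 4. Ni_6W+2W had 0 of 63 called against Control_6W, with 6 at an unadjusted p under 0.05. IRS1, the sister adaptor of IRS2, was not called in any of the 10 comparisons, and its log2 difference was 0.26 in Ni_3D, 1.28 in Ni_6W and 1.16 in the clones. IGF2R, the receptor that clears IGF2, likewise was not called, with differences of -0.26, -0.20 and 0.14.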

How the data were processed

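Total RNA of 20 BEAS-2B libraries was sequenced after a TruSeq RNA preparation, per the labels' protocols. The authors deposited raw read counts per RefSeq gene and, beside them, RPKM values computed by the authors, per the file headers. The submitters' processing notes name the builds hg19 and GRCh37 and the tools DESeq, DESeq2 and STAR 2.4; the way of counting and the use of strand are not given in the sources used. Libraries were joined by RefSeq identifier, since 28 symbols had been changed in some library. No pair of the 190 agreed within counting error (chi-square over its degrees of freedom was at least 9.59).

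One shared fit took the 14 non-clone libraries, and separate fits took the clones with Control_6W or with Ni_6W+2W, in edgeR 4.0.16 (R 4.3.3; TMM scaling; filterByExpr at 10 reads per library and 15 in total; quasi-likelihood test with robust dispersion). p-values were adjusted by Benjamini-Hochberg over the 14927, 14172 or 14273 genes tested, and genes under 0.05 were called. The coefficient of variation was 29.7%, 24.7% and 24.8%. Levels are CPM, counts scaled by TMM library size over the 20 libraries, and genes were compared with each other in RPKM. The fits were also run on simulated counts with the same spread for all genes and no split among the controls, so no result here rests on that run. As alternatives came RLE scaling, DESeq2 1.42.0, a replicate block, unfiltered counts, the compared groups alone and fits without single libraries or the libraries that stood apart. All 10 members were always named, and other pathway genes were named, up to 6 per comparison, by the smallest adjusted p among those called, except 1 that is not reported here. The members, the lists and the libraries left out were chosen with earlier results of these data known.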

Additional observations from a re-analysis of the deposited data

Results flagged for a closer look

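Of 20 sets of libraries examined (10 genes in the 4 Control_3D and the 6 Ni_clone libraries), 2 held a library far from the others. Chance gives about 1 in 20 for continuous values, a rate that does not hold for a few reads. Both belong to IGFBP1. In Ni_clone, clone 4 held all 6 reads, so the gap to the nearest library was the whole range of the group (a ratio of 1.0). In Control_3D, library 1 held all 4 reads, with the same ratio of 1.0. Reads in 1 library alone give this ratio whatever their number, so the flags say no more than that.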

How the results depend on the processing

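Of the 9 tested members, edgeR called 2 in Ni_3D against Control_3D. The number was 0 with a replicate block, 5 without Control_3D 1 and 2, 0 without Control_3D 3 and 4, 1 without Control_3D 1 and Ni_3D 1, and from 0 to 3 with 1 library left out. The number of all genes called in the fits without 2 libraries is not given here, so these member numbers are a description. With the block IGFBP4 had an adjusted p of 0.126 and IRS2 of 0.174 by edgeR. In Ni_6W it was 0, but 3 with DESeq2, 2 with the replicate block (IGFBP7 and IGF1R), 1 with only the groups compared and from 0 to 2 with 1 library left out. In Control_6W against Control_3D it was 0, but 1 (IGFBP7, lower) with the block and 1 without Control_3D 3 and 4. In the clones against Control_6W it was 2, but 1 without the filter and from 0 to 2 with 1 library left out. The member counts of the other 6 comparisons stayed at 0 under the alternatives run. The cause of these shifts was not tested. No called member changed sign under the alternatives run, while IGFBP3, IGFBP5 and IGFBP6, not called, did in Ni_3D. Same-numbered libraries correlated over 0.1 in 10 of 15 pairs of groups (r from -0.46 to 0.31; 0.12 for Ni_3D with Control_3D). The labels do not say what a number marks and the other 5 pairs were not over 0.1, so the libraries were not treated as paired, and whether they are was not settled. Of the other pathway genes, where edgeR called 6 in Ni_3D, DESeq2 called 12 and the block 2; applying the alternatives to this list and to the fibroblast list was chosen after seeing the data. Over all genes, edgeR and DESeq2 called 746 and 1970 for the clones against Control_6W, 368 and 2051 for Ni_6W, 0 and 320 for the cells after washing, 647 and 1880 for Ni_3D, 0 and 16 for Ni_3D+14D, 38 and 442 for Ni_3D+14D against Ni_3D, 0 and 7 for Ni_6W+2W against Ni_6W, 0 and 49 between the controls, 0 and 190 for the long less the short response and 4 and 61 for the clones against Ni_6W+2W; without Ni_6W 2 edgeR called 2871 in Ni_6W, and without Ni_6W 1 or Control_6W 2 it called 0. With 1 library left out, as few as 65 genes were called in Ni_3D and 6 in the clones against Control_6W. Groups of 2 libraries and the spread of the controls limit the precision, and left-out fits with 1 library in a group assume that it varies like the others.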
